A study of Homo sapiens with 26 samples.

Results

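Aminoacyl-tRNA synthetases were described as a set of 36 genes among the 58735 genes of the expression table, chosen by gene name with no use of expression values. The set holds 20 cytosolic and 16 mitochondrial members, and a mitochondrial member has a name that ends in 2. Among the cytosolic genes, 8 encode parts of the multisynthetase complex and 12 encode free enzymes. All 36 passed the filter on low values, which left 14835 genes to be tested, and the lowest read count of any member in any library was 45. The table uses the older symbols (AARS for the gene now called AARS1).

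Each of these enzymes joins an amino acid to its tRNA, the step at which the genetic code is read. The cytosol and the mitochondrion have largely separate sets, both encoded in the nucleus, and several cytosolic enzymes are held together in a complex by the scaffold proteins AIMP1, AIMP2 and EEF1E1. Many cytosolic synthetase genes also belong to the amino acid response, in which the kinase GCN2 senses uncharged tRNA and the transcription factor ATF4 raises genes for amino acid synthesis, uptake and tRNA charging.

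The study made tetraploid (4N) clones from human cancer lines and compared clones of large and small cell and nuclear size. The lines were CAL51, from a triple negative breast cancer, and HCT116 and DLD1, both from colorectal cancers. Cells had been exposed for 20 hr to 75 µM blebbistatin (CAL51 and HCT116) or 1.5 µg/mL dihydrocytochalasin (DLD1), left to recover for 48 hr and cloned from single cells. Drug and line therefore cannot be told apart between 4N clones of DLD1 and those of the other lines, while CAL51 and HCT116 shared the drug. The labels give this exposure as the step that made the 4N clones and do not say whether the 2N clones went through it, so 4N state and drug exposure cannot be told apart. CAL51 had 3 large 4N clones, 1 small 4N clone, 2 diploid (2N) clones and 1 parental library. HCT116 had 3 large, 3 small, 2 2N and 1 parental, and DLD1 had 4 large, 3 small, 2 2N and 1 parental. Each replicate is a clone, so the tests measure the spread between clones.

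The 26 libraries held 23.5 to 44.5 M reads in genes (median 32.5 M). Values are FPKM, fragments per kilobase of gene length scaled per library, and so are shares of RNA that do not show the amount of RNA per cell. Of 10 colorectal epithelial markers, 4 averaged at least 1 FPKM in CAL51, 5 in HCT116 and 8 in DLD1. Their summed level was 203 to 3889 FPKM in CAL51, 596 to 1700.2 FPKM in HCT116 and 1612 to 2301 FPKM in DLD1. CDX1 was below 0.1 FPKM in every library of all 3 lines. VIL1 and LGALS4 were so in CAL51 and HCT116, KRT20 in CAL51 and CDH17 in HCT116. Of 7 markers of CAL51 as a breast line with mesenchymal traits, 4 averaged at least 1 FPKM in CAL51, 2 in HCT116 and 2 in DLD1. Their summed level was 155 to 3842 FPKM in CAL51, 479.9 to 1542 FPKM in HCT116 and 1152 to 1886 FPKM in DLD1. KRT8 and KRT18 are in both lists, so the summed levels are not separate and do not show mesenchymal traits. ESR1 and PGR were below 0.1 FPKM in every library of all 3 lines, VIM in every DLD1 library and CDH2 in every HCT116 library. No leukocyte marker averaged 1 FPKM in any line. Of 6 fibroblast and endothelial markers, 2 averaged at least 1 FPKM in CAL51, 1 in HCT116 and 0 in DLD1. HCT116 large clone 2 stood apart: without it, 1035 genes differed between large and small HCT116 clones (6.98%), against 66 with it (0.445%), so the members called between HCT116 classes are given both with and without it, while levels, counts of members above 0 and the plot of size differences include it.

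Cytosolic synthetase mRNAs were more abundant than mitochondrial ones in every library. The median level of the 20 cytosolic genes was 31.2 to 52.7 FPKM across libraries, and that of the 16 mitochondrial genes 6.10 to 10.7 FPKM. The ratio of these medians was 3.06 to 4.37 in CAL51, 4.68 to 8.40 in HCT116 and 3.49 to 5.40 in DLD1, so every HCT116 library lay above every CAL51 library while HCT116 and DLD1 overlapped. VARS, the valine enzyme, was the highest cytosolic member at 72.7 ± 10.1 FPKM (SD, n = 26 libraries), and CARS, the cysteine enzyme, the lowest at 9.29 ± 4.54 FPKM. IARS2, the mitochondrial isoleucine enzyme, was the highest of its class at 49.1 ± 6.59 FPKM, and SARS2, the mitochondrial serine enzyme, the lowest at 1.13 ± 0.436 FPKM. AARS, the alanine enzyme, had the highest ratio of highest to lowest library among cytosolic members, 8.03 (21.4 to 172 FPKM). WARS2, the mitochondrial tryptophan enzyme, had the highest ratio of all members, 17.9 (0.747 to 13.4 FPKM).

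**Figure D1:**
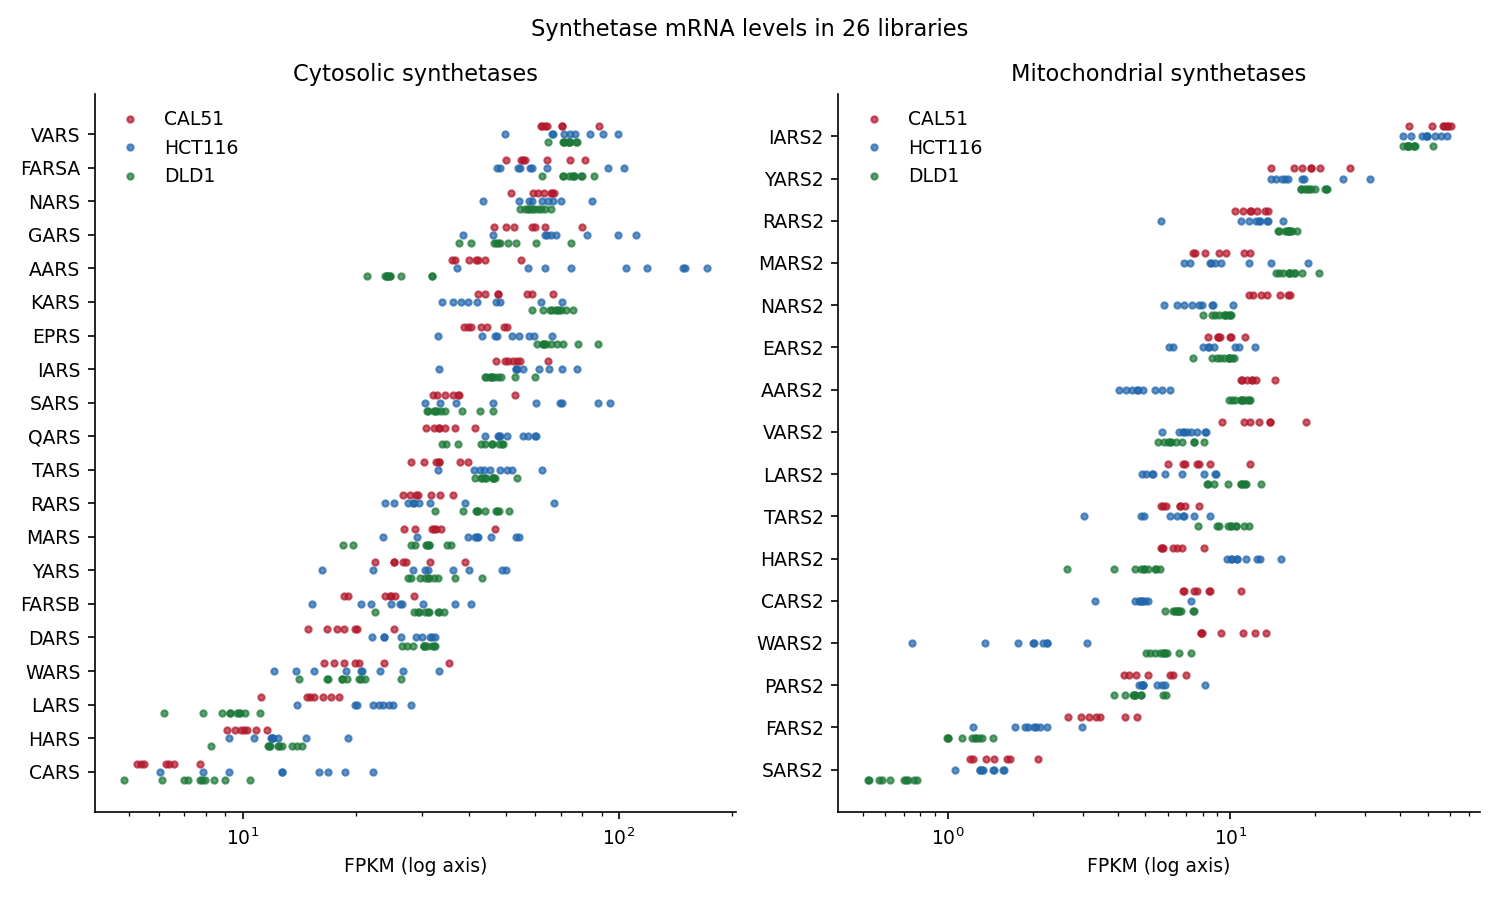
FPKM (log axis) of the 20 cytosolic and 16 mitochondrial synthetase genes, with 1 point for each library of CAL51, HCT116 and DLD1. IARS2 is at least 40.8 FPKM in every library while YARS2, the next mitochondrial gene, reaches at most 31.4 FPKM, and AARS in HCT116 spreads from 37.1 to 172 FPKM.

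The order of HCT116 clones described below, with clone 2 the highest of its class, was found mostly in synthetase genes listed as ATF4 targets, so the stretches of synthetase promoters that hold a known motif of the amino acid response are shown. The motif was TGATGNAA or its reverse complement TTNCATCA, a joint C/EBP and ATF element that ATF4 can bind. It was searched on both strands from 250 bases before to 50 bases after each gene's start (RefSeq, GRCh38.p14). Of 12 cytosolic synthetase genes listed as ATF4 targets, 10 had a promoter entry and 7 of the 10 held the motif. It was in 0 of 6 other cytosolic members with an entry, in 1 of 14 mitochondrial members and in 4.46% of all 27305 genes with an entry. The list names synthetases already known as ATF4 targets, and ATF4 can bind this motif. The higher share in the list is therefore a description and not a test of the list or of the clone order. The 30 bases around each match are printed 5′ to 3′ on the strand of the gene, with the motif in capitals.
AARS, alanine enzyme, chr16:70289675-70289704, minus strand: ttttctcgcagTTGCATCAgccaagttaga
CARS, cysteine enzyme, chr11:3057407-3057436, minus strand: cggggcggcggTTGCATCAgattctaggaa
GARS, glycine enzyme, chr7:30594834-30594863, plus strand: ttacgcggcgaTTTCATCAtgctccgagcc
IARS, isoleucine enzyme, chr9:92293692-92293721, minus strand: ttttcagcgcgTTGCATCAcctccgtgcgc
MARS, methionine enzyme, chr12:57488053-57488082, plus strand: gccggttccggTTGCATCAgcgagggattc
NARS, asparagine enzyme, chr18:57621804-57621833, minus strand: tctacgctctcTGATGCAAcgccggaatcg
TARS, threonine enzyme, chr5:33440956-33440985, plus strand: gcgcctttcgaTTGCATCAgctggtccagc
YARS2, mitochondrial tyrosine enzyme, chr12:32756076-32756105, minus strand: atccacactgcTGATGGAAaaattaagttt

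The same 8 letters, TTGCATCA, stood in the promoters of AARS, CARS, IARS, MARS and TARS. NARS held their reverse complement, and GARS and YARS2 had another base at the free position. Counted from the annotated start, the first base of the match lay at -13 in IARS, -4 in MARS, -2 in CARS, -33 in GARS, 3 in TARS and 15 in NARS, but at -187 in AARS and -197 in YARS2. A match describes letters in this window, and binding was not measured. The motif and the HCT116 clone order went together in AARS, CARS, GARS, MARS and TARS but not in every listed gene. SARS and WARS were highest in clone 2 of each class and had no match in their windows. IARS and NARS held the motif, and among small clones they were highest in clone 3 by a narrow margin. Small clones 2 and 3 stood at 53.36 and 53.41 FPKM for IARS and at 57.8 and 58.6 FPKM for NARS. Among large clones and among 2N clones both genes were highest in clone 2. The part of the motif in the clone order was not tested.

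No synthetase gene passed the threshold between large and small 4N clones in any line or in the mean of the 3 lines (limma on log2(FPKM + 1), Benjamini-Hochberg adjusted p under 0.05). Of all tested genes, 0.398% passed in the mean of the lines, 1.52% in CAL51, 0.445% in HCT116 and 0.472% in DLD1. At an unadjusted p under 0.05 there were 2 members in the mean (beside 9.54% of all genes), 2 in CAL51 (12.4%), 12 in HCT116 (15.4%) and 2 in DLD1 (6.65%), and limma voom on reads recovered from the FPKM called 0 in each. In the mean of the lines the log2 difference, large minus small, was above 0 for 7 of 8 complex members, 12 of 12 free enzymes and 12 of 16 mitochondrial members. The medians were 0.13, 0.12 and 0.05, beside a share above 0 of 49.7% over all tested genes. The smallest p values belonged to WARS, the tryptophan enzyme (0.43 ± 0.18 SE, adjusted p = 0.437), its mitochondrial counterpart WARS2 (-0.32 ± 0.13 SE, adjusted p = 0.455) and HARS, the histidine enzyme (0.20 ± 0.10 SE, adjusted p = 0.5504).

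The count of members above 0 varied by line. In CAL51, with 1 small clone, the difference was above 0 for 2 of 8 complex members, 6 of 12 free enzymes and 6 of 16 mitochondrial members, with medians of -0.06, -0.02 and -0.09. In HCT116 it was above 0 for 8 of 8, 10 of 12 and 12 of 16, with medians of 0.19, 0.37 and 0.15. In DLD1 it was above 0 for 6 of 8, 10 of 12 and 9 of 16, with medians of 0.10, 0.11 and 0.01. Over all tested genes the share above 0 was 50.2%, 49.01% and 48.9% in CAL51, HCT116 and DLD1. Tested directly, the size difference itself differed between lines for 0 members in 108 tests, with the smallest adjusted p, 0.113, for VARS2 in CAL51 minus HCT116. Of all genes, 1.54% passed in CAL51 minus HCT116, 0.667% in CAL51 minus DLD1 and 0.155% in HCT116 minus DLD1. At an unadjusted p under 0.05 there were 7 members in CAL51 minus HCT116 (beside 17.9% of all genes), 2 members in CAL51 minus DLD1 (beside 11.1% of all genes) and 3 members in HCT116 minus DLD1 (beside 9.13% of all genes).

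**Figure D2:**
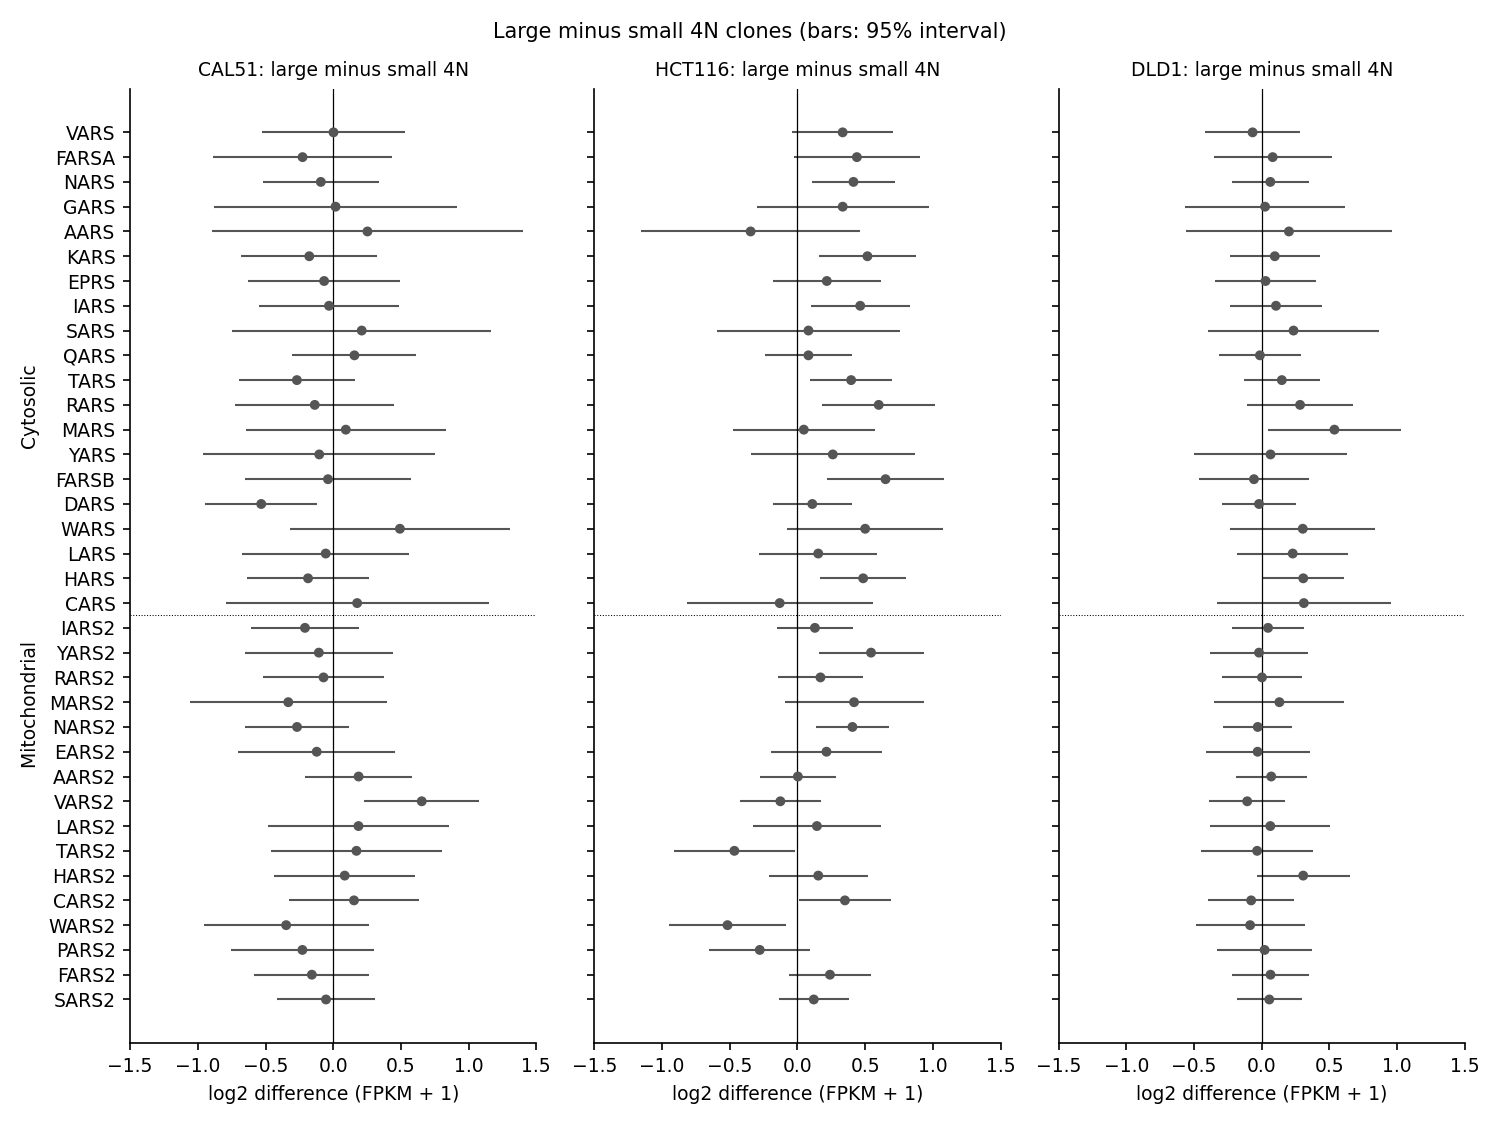
Log2 difference of FPKM + 1, large minus small 4N clones, for the 36 genes in each line, with 95% intervals. No gene passed the threshold, and 30 of 36 points lie above 0 in HCT116.

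In HCT116 the smallest p values belonged to HARS, NARS2 and FARSB. HARS stood at 14.7, 12.4 and 19.1 FPKM in large clones, against 10.7, 9.203 and 11.9 FPKM in the small clones (0.49 ± 0.15 SE, adjusted p = 0.142). NARS2, the mitochondrial asparagine enzyme, stood at 8.71, 8.597 and 10.2 FPKM in large clones, against 5.81, 6.51 and 7.78 FPKM in the small clones (0.41 ± 0.13 SE, adjusted p = 0.148). For both genes every large clone lay above every small clone. FARSB, a subunit of the phenylalanine enzyme, stood at 36.6, 26.3 and 40.5 FPKM in large clones, against 15.3, 20.6 and 30.2 FPKM in the small clones, with overlap (0.65 ± 0.21 SE, adjusted p = 0.148). Large clones lay above small clones without overlap for 5 cytosolic members (IARS, RARS, HARS, NARS and TARS) and 6 mitochondrial members (CARS2, FARS2, NARS2, RARS2, SARS2 and YARS2), and below them for 0, beside 6.85% of all tested genes above and 7.5% below.

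Without large clone 2, 8 members passed between large and small HCT116 clones, beside 6.98% of all genes. FARSA, the other phenylalanine subunit (0.78 ± 0.17 SE, adjusted p = 0.0149), RARS, the arginine enzyme (0.83 ± 0.19 SE, adjusted p = 0.0177), KARS, the lysine enzyme (0.68 ± 0.17 SE, adjusted p = 0.0285), HARS, FARSB, YARS2 and MARS2 were higher in large clones. TARS2, the mitochondrial threonine enzyme, was lower (-0.73 ± 0.19 SE, adjusted p = 0.0332). With all clones, FARSA stood at 93.9, 47.6 and 103 FPKM in large clones, against 48.4, 58.7 and 64.5 FPKM in the small clones, so large clone 2 lay below every small clone while the other two lay above. MARS2, the mitochondrial methionine enzyme, stood at 13.97, 7.204 and 18.9 FPKM in large clones, against 6.86, 9.29 and 11.7 FPKM in the small clones.

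HCT116 clones of the same size class differed from each other in a set of cytosolic synthetase genes. AARS stood at 63.7, 149.6 and 37.1 FPKM in large clones, 57.4, 172 and 74.7 FPKM in small clones, 105 and 148 FPKM in 2N clones and 119 FPKM in parental cells. Clone 2 was the highest of each class, and large clones 1 and 3 and small clones 1 and 3 lay below the 2N and parental libraries. SARS, the serine enzyme, stood at 36.9, 94.6 and 33.5 FPKM in large clones, 30.5, 69.8 and 46.4 FPKM in small clones, 60.3 and 87.97 FPKM in 2N clones and 70.6 FPKM in parental cells. CARS stood at 9.17, 22.2 and 6.02 FPKM in large clones, 7.84, 16.9 and 12.7 FPKM in small clones, 12.7 and 18.7 FPKM in 2N clones and 15.96 FPKM in parental cells. GARS, the glycine enzyme, stood at 65.9, 111 and 46.2 FPKM in large clones, 38.6, 67.9 and 63.8 FPKM in small clones, 64.4 and 99.4 FPKM in 2N clones and 82.4 FPKM in parental cells. In each of these genes clone 2 was again the highest of its class.

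**Figure D3:**
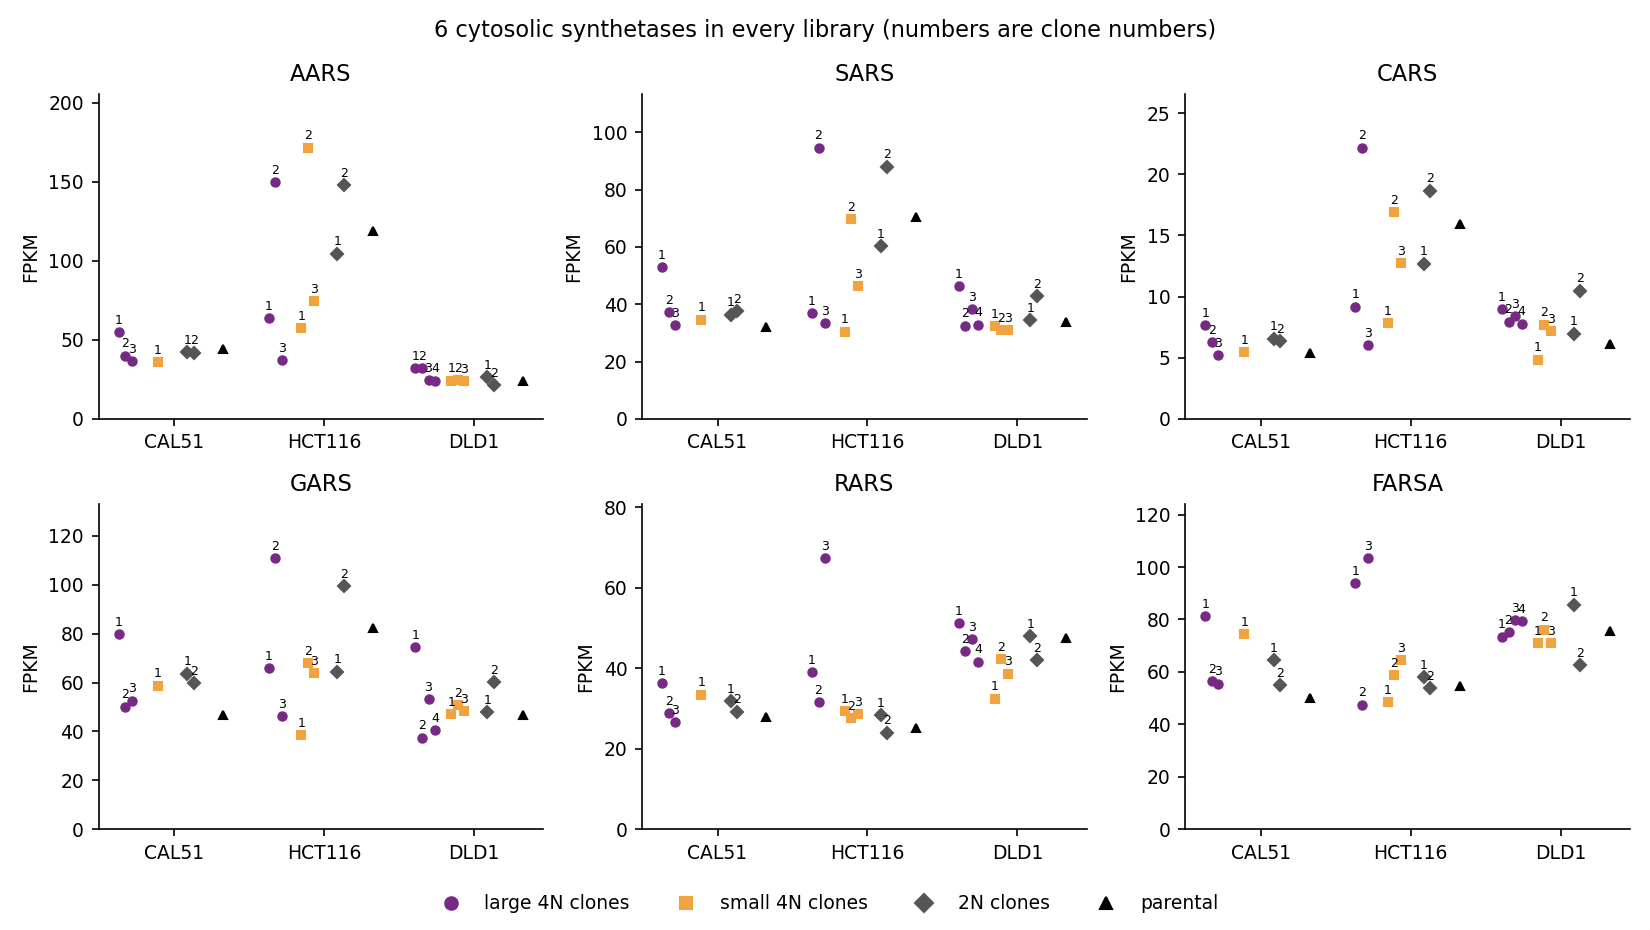
FPKM of 6 cytosolic synthetase genes in every library by line, with large 4N clones, small 4N clones, 2N clones and parental cells from left to right and clone numbers at the points. AARS, SARS, CARS and GARS are highest in clone 2 of each HCT116 class, while FARSA is lowest in large clone 2 and RARS highest in large clone 3.

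The highest AARS level was 1.52 times the lowest over 7 CAL51 libraries, 4.62 times over 9 HCT116 libraries and 1.50 times over 10 DLD1 libraries. Over the 12 synthetase genes listed as ATF4 targets the median SD of log2(FPKM + 1) was 0.20 in CAL51, 0.41 in HCT116 and 0.19 in DLD1, beside 0.24, 0.23 and 0.16 over all tested genes. For the other 8 cytosolic members it was 0.20, 0.32 and 0.14, and for the 16 mitochondrial members 0.20, 0.23 and 0.12. Clone 2 was the highest of its class in all 3 HCT116 classes for 8 of the 12 listed synthetases, 1 of the 8 other cytosolic members and 1 of the 16 mitochondrial members, beside 9.46% of all tested genes. MARS, which overlaps DDIT3, is among the 8 listed synthetases. The clone and the genes were chosen after their values were seen, so these counts are a description.

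In HCT116, clone 2 was also the highest of each class for 18 of 24 other ATF4 targets and 6 of 11 amino acid transporters. TRIB3, a pseudokinase that ATF4 induces, stood at 19.5, 127 and 13.3 FPKM in large clones, 11.02, 88.0 and 38.97 FPKM in small clones, 53.4 and 109.9 FPKM in 2N clones and 75.9 FPKM in parental cells. ASNS, which makes asparagine, stood at 0.827, 6.94 and 0.331 FPKM in large clones, 0.587, 7.46 and 1.78 FPKM in small clones, 2.47 and 5.21 FPKM in 2N clones and 3.46 FPKM in parental cells. The mRNA of ATF4, which is controlled largely at translation, stood at 160.3, 264 and 134 FPKM in large clones, 146, 241 and 219 FPKM in small clones, 221 and 269 FPKM in 2N clones and 245 FPKM in parental cells. Across all tested genes the deviations of large clone 2 from its class mean correlated with those of 2N clone 2 (r = 0.197) and small clone 2 (r = 0.161). Those of large clone 3 and small clone 3 did so to a like degree (r = 0.164). With 2 clones in the 2N class, the deviations of 2N clone 2 are the reverse of those of 2N clone 1. The first r therefore does not rest on 2N clone 2 alone. Whether clone numbers mark a shared batch or culture state is not given in the labels, and its part in this order was not tested.

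RARS, outside that list, did not follow clone 2. It stood at 39.1, 31.5 and 67.3 FPKM in large clones, 29.4, 27.5 and 28.5 FPKM in small clones, 28.3 and 23.97 FPKM in 2N clones and 25.2 FPKM in parental cells. KARS stood at 70.4, 47.2 and 61.98 FPKM in large clones, 33.9, 41.9 and 48.4 FPKM in small clones, 37.9 and 36.2 FPKM in 2N clones and 39.7 FPKM in parental cells. Small clone 1 was the lowest HCT116 library for EPRS (32.95 FPKM), IARS (33.3 FPKM), NARS (43.6 FPKM) and VARS (49.9 FPKM), among others. It also had 30.99 FPKM of MYC, a factor that raises genes of protein synthesis, against 128 to 261 FPKM in the other HCT116 libraries, and the part of MYC was not tested.

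In CAL51, large clone 1 was the highest of the 3 large clones for 10 of the 12 listed synthetases, 7 of the 8 other cytosolic members and 9 of the 16 mitochondrial members, beside 41.4% of all tested genes. GARS stood at 79.9, 50.1 and 52.6 FPKM in large clones, against 58.8 FPKM in the small clone. WARS stood at 35.4, 18.6 and 23.7 FPKM in large clones, against 17.5 FPKM in the small clone. EIF4EBP1, a translation repressor and ATF4 target, stood at 276, 99.6 and 95.2 FPKM in large clones, against 109 FPKM in the small clone.

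In DLD1 the smallest p values between large and small clones belonged to MARS, HARS and HARS2. MARS, the methionine enzyme, stood at 35.8, 30.8, 31.2 and 30.9 FPKM in large clones, against 28.7, 19.6 and 18.4 FPKM in the small clones, without overlap (0.54 ± 0.23 SE, adjusted p = 0.6598). MARS overlaps DDIT3 on the opposite strand, and whether counting used strand is not given in the sources used here, so its level is uncertain. HARS stood at 12.7, 13.96, 14.4 and 11.7 FPKM in large clones, against 8.23, 11.8 and 11.7 FPKM in the small clones, with overlap (0.31 ± 0.14 SE, adjusted p = 0.725), and HARS2 gave 0.31 ± 0.16 SE, adjusted p = 0.862. Large clones lay above small clones without overlap for KARS, MARS, CARS, SARS and TARS and for 0 mitochondrial members, beside 5.28% of all tested genes, and below for 0, beside 6.21%. In CAL51 the smallest p belonged to VARS2, the mitochondrial valine enzyme, at 18.6, 13.8 and 13.8 FPKM in large clones, against 9.33 FPKM in the small clone (0.65 ± 0.20 SE, adjusted p = 0.147), followed by DARS, the aspartate enzyme (-0.53 ± 0.20 SE, adjusted p = 0.239), and NARS2 (-0.27 ± 0.18 SE, adjusted p = 0.624).

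Ploidy was addressed by the 4N clones against the 2N clones of the same line. In the mean of the 3 lines no member passed, beside 0.00674% of all genes, 2 members had an unadjusted p under 0.05, beside 5.002% of all genes, and voom called 0. The smallest p values belonged to RARS2, the mitochondrial arginine enzyme (0.31 ± 0.09 SE, adjusted p = 0.795), FARS2, the mitochondrial phenylalanine enzyme (0.20 ± 0.09 SE, adjusted p = 0.955), and KARS (0.17 ± 0.10 SE, adjusted p = 0.979). The log2 difference was above 0 for 1 of 12 synthetases listed as ATF4 targets (median -0.14), 7 of 8 other cytosolic members (median 0.13) and 13 of 16 mitochondrial members (median 0.04), beside 48.4% of all tested genes. None of these differences passed the test.

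By line, 1 member passed against 2N clones, RARS2 in large HCT116 clones, beside 0.917% of all genes. RARS2 stood at 13.5, 12.8 and 15.4 FPKM in large clones, 12.6, 11.7 and 12.3 FPKM in small clones, 10.9 and 5.68 FPKM in 2N clones and 13.6 FPKM in parental cells, and large minus 2N clones was 0.74 ± 0.17 SE, adjusted p = 0.0452. Both 2N clones lay below all large clones, 2N clone 2 was the lowest HCT116 library, and the parental cells lay within the range of the large clones. Without 2N clone 1 the log2 difference was 1.15. The call was lost without 2N clone 2 (log2 difference 0.32, adjusted p = 0.506), with HCT116 fitted alone (adjusted p = 0.335) and under voom (adjusted p = 0.0808), among 9 of 13 alternatives. Without large clone 2, 8 members passed, beside 7.97% of all genes. FARSA, KARS, RARS, YARS2, RARS2 and MARS2 were higher in large clones. AARS (-1.34 ± 0.37 SE, adjusted p = 0.0343) and SARS (-1.03 ± 0.29 SE, adjusted p = 0.0401) were lower. That fit kept 2N clone 2, the higher of the 2N clones for AARS (148 against 105 FPKM) and SARS (87.97 against 60.3 FPKM). With all clones the AARS difference was -0.80 ± 0.43 SE (adjusted p = 0.381).

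In the other comparisons with 2N clones 0 members passed. Of all genes, 0.148% passed for the small clone of CAL51, 0.027% for small HCT116 clones, 0.337% for small DLD1 clones, 0.465% for large CAL51 clones and 0% for large DLD1 clones (0 by voom). Members at an unadjusted p under 0.05 numbered 0 (beside 4.17% of all genes), 2 (4.55%), 0 (7.24%), 1 (8.16%) and 0 (2.99%) in the same order, and voom called 0 in each. The 3 smallest p values belonged to DARS (0.37 ± 0.21 SE), VARS2 (-0.32 ± 0.22 SE) and FARS2 (0.31 ± 0.21 SE) in the small CAL51 clone, and to RARS2 (0.57 ± 0.17 SE), IARS (-0.45 ± 0.19 SE) and SARS (-0.64 ± 0.36 SE) in small HCT116 clones. They belonged to MARS (-0.58 ± 0.28 SE), HARS (-0.29 ± 0.17 SE) and RARS (-0.25 ± 0.22 SE) in small DLD1 clones. In large clones they belonged to VARS2 (0.34 ± 0.16 SE), EPRS (-0.28 ± 0.21 SE) and LARS2 (0.33 ± 0.25 SE) in CAL51 and to HARS2 (0.24 ± 0.19 SE), QARS (-0.21 ± 0.16 SE) and YARS2 (-0.19 ± 0.20 SE) in DLD1. None of these values passed the test.

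Some clones stood apart in HARS, HARS2, LARS and RARS, which lie on chromosome 5 (GRCh38). HARS lies at 140673904 to 140691862 on the minus strand, and HARS2 at 140691426 to 140699318 on the plus strand, so they overlap by 437 bases. LARS, the leucine enzyme, lies at 146113038 to 146182660 and RARS at 168486445 to 168519299. In DLD1 small clone 1 LARS was at 6.19, HARS at 8.23, HARS2 at 2.65 and RARS at 32.4 FPKM, each the lowest of the DLD1 libraries. Against the median of the other DLD1 libraries, LARS differed by -0.57 on the log2 scale (median of genes within 10 Mb -0.38), HARS by -0.55 (-0.38), HARS2 by -0.71 (-0.38) and RARS by -0.43 (-0.32).

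In HCT116 large clone 3 these genes lay the other way. RARS differed from the median of the other HCT116 libraries by 1.21 (genes within 10 Mb 0.34), HARS by 0.64 (0.29), HARS2 by 0.48 (0.29) and LARS by 0.15 (0.24). Higher neighbours were not confined to these genes in that clone. Genes within 10 Mb differed by 0.50 at TARS, also on chromosome 5, by 0.29 at FARS2 on chromosome 6 and by 0.26 at WARS on chromosome 14. WARS2, on chromosome 1, was at 0.747 FPKM in HCT116 large clone 1, a difference of -0.82 (-0.23). Over all members and libraries, neighbouring genes differed by 0.2 or more in 48 of 936 pairs of member and library. The member had the same sign in 37 of the 48. Members with the same neighbours, such as HARS and HARS2 or EPRS and IARS2, enter this count for the same shift. No share over all tested genes stands beside the count, so it does not set synthetases apart from other genes. Copy number was not measured, and its part was not tested.

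**Figure D4:**
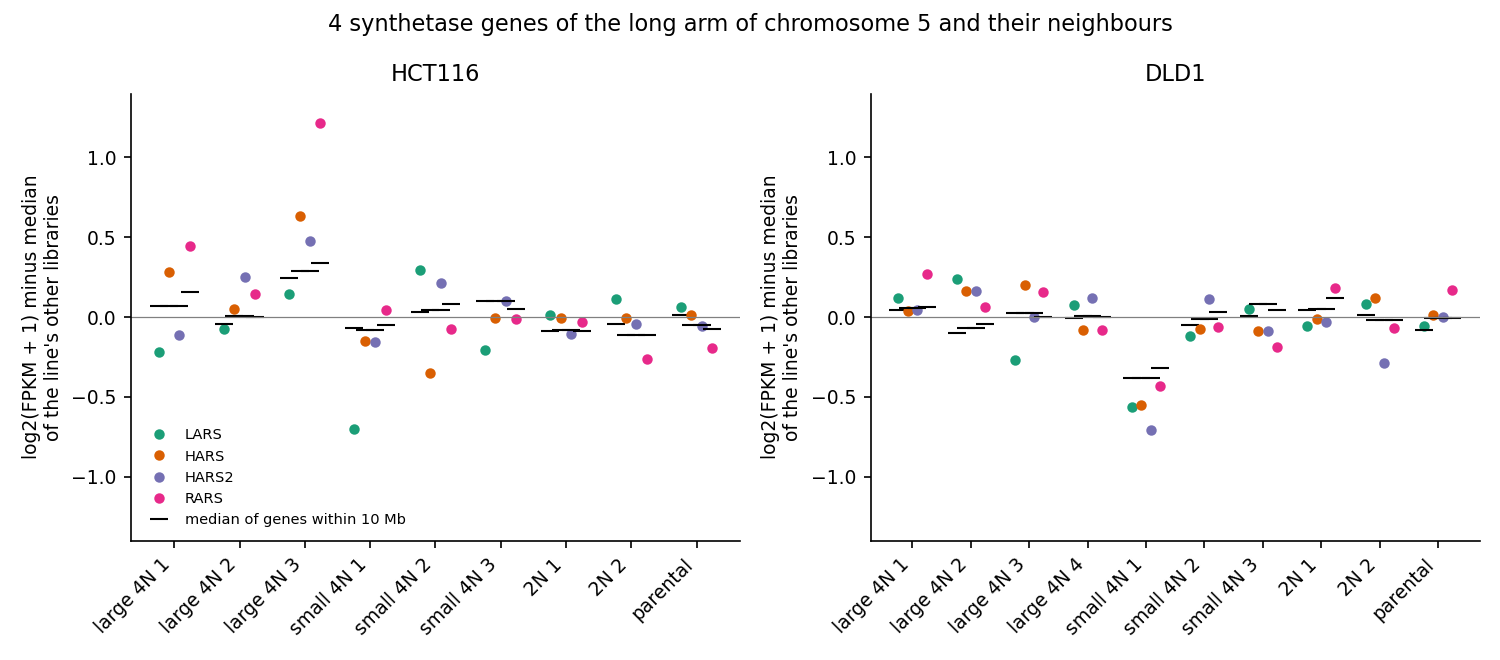
Log2(FPKM + 1) of LARS, HARS, HARS2 and RARS in each HCT116 and DLD1 library minus the median of the line's other libraries (points), with the median over genes within 10 Mb (dashes). All 4 genes and their neighbours lie below 0 in DLD1 small clone 1, and RARS lies 1.21 above 0 in HCT116 large clone 3 with neighbours at 0.34.

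The lines differed in more members than the clone classes did. Between 2N clones, 11 of 36 members passed in CAL51 minus HCT116 (30.6%, beside 45.4% of all genes), 9 in CAL51 minus DLD1 (25.0%, beside 40.1%) and 12 in HCT116 minus DLD1 (33.3%, beside 39.6%). Mitochondrial members made up 7 of the 11, 6 of the 9 and 8 of the 12. The comparisons share samples, since each line enters a pair of them, and voom called 11, 9 and 11 members.

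In CAL51 minus HCT116, 6 mitochondrial members were higher and 1 lower. The difference was above 0 for 15 of 16 mitochondrial members, with a median of 0.34, beside 50.98% above 0 over all tested genes. AARS2, the mitochondrial alanine enzyme, stood at 11.97 and 12.4 FPKM in CAL51 2N clones, against 4.47 and 4.92 FPKM in HCT116 2N clones (1.21 ± 0.16 SE, adjusted p = 9.16e-06). WARS2 stood at 11.1 and 9.28 FPKM in CAL51 2N clones, against 2.01 and 2.24 FPKM in HCT116 2N clones (1.83 ± 0.25 SE, adjusted p = 1.15e-05). In both genes the 2N clones of the lines lay far apart. NARS2 (0.93 ± 0.16 SE), FARS2 (0.73 ± 0.17 SE), VARS2 (0.61 ± 0.18 SE) and CARS2, the mitochondrial cysteine enzyme (0.57 ± 0.20 SE), were also higher in CAL51, and HARS2 was lower (-0.68 ± 0.21 SE). All 4 cytosolic members that passed were lower in CAL51: QARS, the glutamine enzyme (-0.78 ± 0.19 SE), AARS (-1.55 ± 0.47 SE), CARS (-1.14 ± 0.40 SE) and TARS, the threonine enzyme (-0.48 ± 0.18 SE). AARS, CARS and TARS lost their calls without CAL51 2N clone 1, without CAL51 2N clone 2 and without HCT116 2N clone 2, where 7, 6 and 6 members passed. Without HCT116 2N clone 2 the TARS difference was -0.32. Without single clones CARS2 lost its call in 3 of 4 fits, HARS2 in 3, VARS2 in 2 and FARS2 in 1, while AARS2, WARS2, NARS2 and QARS kept theirs in all 11 alternatives.

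In CAL51 minus DLD1, 6 of 16 mitochondrial and 3 of 20 cytosolic members passed, beside 40.1% of all genes. FARS2 stood at 3.45 and 2.97 FPKM in CAL51 2N clones, against 1.32 and 0.997 FPKM in DLD1 2N clones (0.97 ± 0.17 SE, adjusted p = 0.000247). SARS2 stood at 1.62 and 1.37 FPKM in CAL51 2N clones, against 0.701 and 0.569 FPKM in DLD1 2N clones (0.61 ± 0.15 SE, adjusted p = 0.00353). VARS2 (0.70 ± 0.18 SE), NARS2 (0.62 ± 0.16 SE) and cytosolic LARS (0.75 ± 0.25 SE) were higher in CAL51, and DARS (-0.62 ± 0.17 SE), MARS2 (-0.90 ± 0.30 SE), RARS2 (-0.51 ± 0.18 SE) and QARS (-0.50 ± 0.19 SE) lower. Without CAL51 2N clone 1 or 2, 5 or 4 members passed, and without DLD1 2N clone 1 or 2, 5 or 4. LARS, QARS and RARS2 lost their calls in all 4 of these fits, and DARS, MARS2 and NARS2 in 2 each. The MARS2 difference was -0.59 without CAL51 2N clone 2. FARS2, SARS2 and VARS2 kept theirs in all 11 alternatives.

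HCT116 minus DLD1 held the largest difference of any member, that of AARS. AARS stood at 105 and 148 FPKM in HCT116 2N clones, against 26.3 and 21.4 FPKM in DLD1 2N clones (2.34 ± 0.47 SE, adjusted p = 0.000749), and every HCT116 library lay above every DLD1 library. LARS stood at 23.05 and 24.5 FPKM in HCT116 2N clones, against 9.23 and 9.86 FPKM in DLD1 2N clones (1.23 ± 0.25 SE, adjusted p = 0.000926). HARS2 (1.10 ± 0.21 SE) and SARS2 (0.58 ± 0.15 SE) were also higher in HCT116. HARS2 overlaps ZMAT2 (mean 25.2 FPKM) as well as HARS, and SARS2 overlaps MRPS12, so both levels are uncertain. AARS2 stood at 4.47 and 4.92 FPKM in HCT116 2N clones, against 11.7 and 9.94 FPKM in DLD1 2N clones (-1.05 ± 0.16 SE, adjusted p = 6.19e-05), so AARS mRNA was higher and AARS2 mRNA lower in HCT116 than in DLD1. WARS2 (-1.25 ± 0.25 SE), RARS2 (-0.91 ± 0.18 SE), KARS (-0.83 ± 0.21 SE), MARS2 (-0.996 ± 0.30 SE) and RARS (-0.76 ± 0.24 SE) were lower in HCT116, as were LARS2 and YARS2. Without HCT116 2N clone 2, 7 members passed, and the RARS2 difference was -0.49. Of the 4 fits that leave out a single clone, MARS2 lost its call in 3, RARS in 2 and KARS and SARS2 in 1 each, while AARS, AARS2, HARS2, LARS, RARS2 and WARS2 kept theirs in all 11 alternatives.

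**Figure D5:**
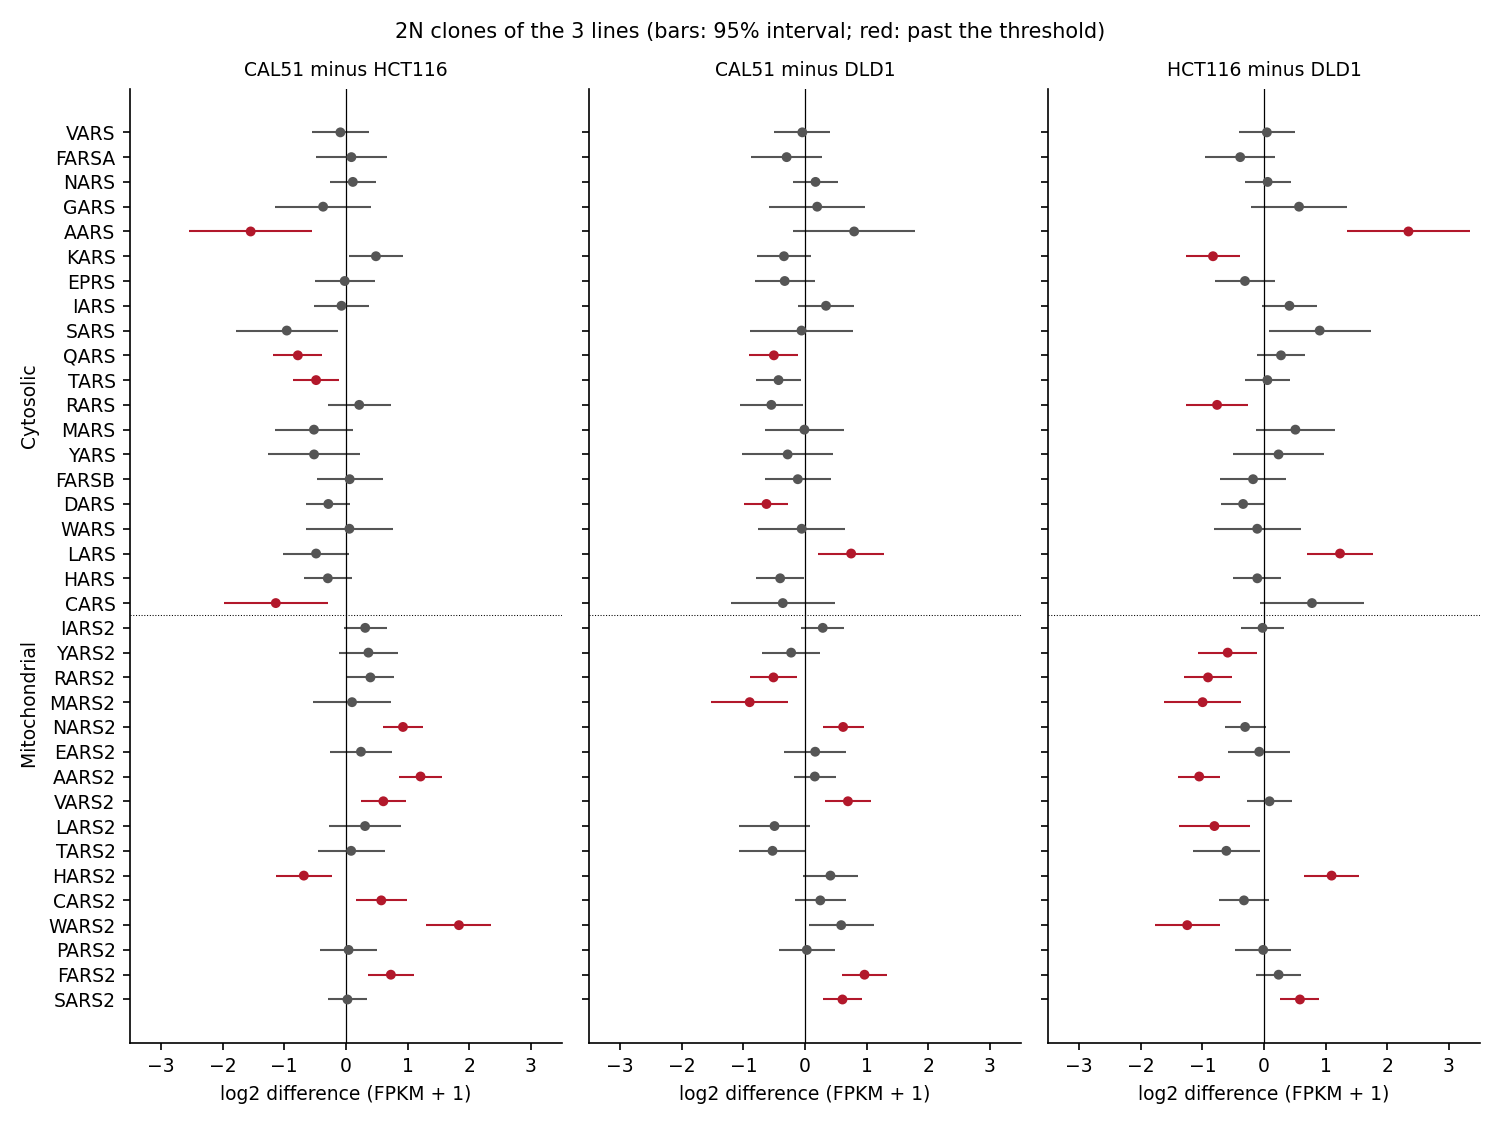
Log2 difference of FPKM + 1 between the 2N clones of the lines with 95% intervals, in which color marks the genes past the threshold. AARS has the largest difference, 2.34 in HCT116 minus DLD1, and AARS2 lies at -1.05 in the same panel.

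Over all libraries of a line, whatever their class, some members did not overlap between lines. AARS2, NARS2, VARS2 and WARS2 were higher in every CAL51 library than in every HCT116 library, beside 16.2% of all tested genes, and QARS and HARS2 were lower, beside 17.5%. LARS, AARS, FARS2, HARS2, NARS2, SARS2, VARS2 and WARS2 were higher in every CAL51 library than in every DLD1 library, beside 19.5%, and DARS, EPRS, TARS, MARS2 and RARS2 lower, beside 16.5%. LARS, AARS, HARS2 and SARS2 were higher in every HCT116 library than in every DLD1 library, beside 17.3%, and AARS2 and WARS2 lower, beside 12.6%.

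Genes that work beside the synthetases were read against 45.4% of all genes called in CAL51 minus HCT116, 40.1% in CAL51 minus DLD1 and 39.6% in HCT116 minus DLD1. Of 3 scaffold genes of the complex, AIMP1 was higher in CAL51 than in HCT116 (0.80 ± 0.22 SE) and than in DLD1 (0.71 ± 0.22 SE), and 0 passed in HCT116 minus DLD1. Of 13 mitochondrial translation factors, 3 were higher and 3 lower in CAL51 minus HCT116, 4 were lower in CAL51 minus DLD1 and 5 were lower in HCT116 minus DLD1, among them the elongation factor GFM1 (-1.22 ± 0.18 SE) and the initiation factor MTIF2 (-1.03 ± 0.16 SE). MTIF2 was also higher in large HCT116 4N clones than in 2N clones (0.63 ± 0.14 SE, adjusted p = 0.0455). Of 26 tRNA processing and modification genes, 6 were higher and 4 lower in CAL51 minus HCT116, 7 were lower in CAL51 minus DLD1, and 1 was higher and 11 lower in HCT116 minus DLD1. TRMT6 (-1.75 ± 0.23 SE) and TRMT61A (-1.60 ± 0.37 SE), the subunits of a tRNA methyltransferase, were both lower in HCT116 than in DLD1.

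Of 24 other ATF4 targets, 4 were higher and 6 lower in CAL51 minus HCT116, 5 were higher and 1 lower in CAL51 minus DLD1, and 9 were higher and 2 lower in HCT116 minus DLD1, and 0 passed in any size or ploidy comparison. STC2, a secreted glycoprotein, was among them at 12.2 and 26.5 FPKM in HCT116 2N clones and is listed at 0 in both DLD1 2N clones. PYCR1, an enzyme of proline synthesis, was also higher in HCT116 than in DLD1 (1.32 ± 0.29 SE). Of 11 amino acid transporters, 1, 2 and 3 passed in CAL51 minus HCT116, CAL51 minus DLD1 and HCT116 minus DLD1. SLC38A2, which carries small neutral amino acids, passed in all of them (-1.68 ± 0.45 SE, 1.29 ± 0.45 SE and 2.97 ± 0.45 SE). Of 6 cytosolic elongation factors, 3, 4 and 1 passed in the same order, with EEF2, the translocation factor, lower in CAL51 than in HCT116 (-1.47 ± 0.24 SE) and than in DLD1 (-1.17 ± 0.24 SE). Of 10 genes listed as sensors and factors of the amino acid response, 4, 4 and 2 passed, all lower. MYC, described above as a factor that raises genes of protein synthesis, is among the 10. The counts are therefore not for genes of the amino acid response alone. ATF4 itself was lower in CAL51 than in HCT116 (-0.91 ± 0.31 SE).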

How the data were processed

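The authors deposited FPKM values of 58735 genes in 26 libraries. Per the submitters' processing notes, fastp, HISAT2 2.0.5, featureCounts 1.5.0-p3, DESeq2 and GRCh38 were named, and per the labels the libraries were poly-A selected and directional. Reads recovered from the FPKM steps were whole (within 0.01) for 100% of values. The filter kept 14835 genes that reached 1 FPKM in 3 or more libraries. On log2(FPKM + 1), limma 3.58.1 (R 4.3.3) fitted 12 means of line and class with an intensity trend and 14 residual degrees of freedom. Tests were two-sided, with Benjamini-Hochberg adjustment over all tested genes and a threshold of 0.05. The spread was pooled over groups, so the lone small CAL51 clone borrows it. On simulated data the fit recovered most changed genes but called more unchanged genes than its threshold implies. Many of these were expressed mainly in 1 line, and a fit to that line alone called fewer of them, so calls near the threshold and shares of all genes called are less certain than their adjusted p. Per comparison, up to 6 members higher and 6 lower were named, or else the 3 with the smallest p, with the extremes of each class and up to 3 of each other list. Members and lists were chosen with earlier results of these data known, and the clones, the motif and other named genes after their values were seen. Replicate numbers recur across groups but were not shown to pair clones. Of the members, 12 overlap another expressed gene, 11 of them on the opposite strand. Neighbours were genes within 10 Mb with a mean of 5 FPKM or more.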

Additional observations from a re-analysis of the deposited data

Results flagged for a closer look

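In DLD1 large 4N clones, the 1 group of 4, a gap of the highest or lowest clone to its nearest neighbour above 0.829 of the range marked 4 of 36 members. For a single gene chance marks about 1 in 20. No share over all tested genes stands beside the count, so it does not set synthetases apart from other genes. MARS stood at 35.8 FPKM and TARS at 53.5 FPKM in large clone 1, each above the other 3 clones. EARS2, the mitochondrial glutamate enzyme, stood at 7.38 FPKM in large clone 4 and NARS2 at 8.61 FPKM in large clone 2, each below the other 3.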

How the results depend on the processing

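In every size comparison and in 4N against 2N in the mean of lines, the count of members past the threshold was 0 under a pseudocount of 0.1, no filter, TMM scaling, the replicate block, the chromosome neighbourhood and voom, and in single lines with the line fitted alone. Between large and small HCT116 clones, leaving out 1 clone gave 0 to 8. For small HCT116 clones against 2N clones and for 4N against 2N in the mean of lines, it gave 0 to 1. For large HCT116 clones against 2N clones the 1 call became 0 under the pseudocount of 0.1, the replicate block, the neighbourhood, the line fitted alone and voom, 3 (KARS, RARS and YARS2) with parental cells counted as 2N, and 0 to 8 without 1 clone. Between 2N clones, the replicate block left 5 in both CAL51 comparisons. In CAL51 minus DLD1, no filter left 5, and counting parental cells as 2N gave 19. Leaving out 1 clone gave 6 to 8 of 11 in CAL51 minus HCT116, 4 to 5 of 9 in CAL51 minus DLD1 and 7 to 11 of 12 in HCT116 minus DLD1. Causes were not tested. Apart from the fits without HCT116 large clone 2, the counts under changed settings have no share of all genes beside them. This holds here and for the 2N clones of the lines above. Such counts show how the calls depend on processing and do not set synthetases apart from other genes. Of 796 values for single genes, 720 kept their side of the threshold, 71 lost it, 5 gained it and 0 changed sign. The replicate block is a sensitivity check only: in HCT116 each large clone correlated best with the small clone of its number (r = 0.028, 0.161 and 0.164), and in DLD1 1 of 3 did. Large and 2N clones of the same number correlated in CAL51 (r = 0.205 and 0.180, numbers 1 and 2) and for HCT116 number 2 (r = 0.197). With 2 clones in a 2N class, their deviations from the class mean are equal and opposite. The CAL51 values therefore share the same 2N deviations and are not 2 separate pairings. The planned edgeR test on recovered reads was not run, and limma voom, chosen after seeing the data, took its place. With 1 to 4 clones a group, differences under about 2-fold in a member were often within the error.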
